A study of Rattus norvegicus with 30 samples.

Results

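The genes described here are 10 genes of recruited and lipid-handling macrophages, Trem2, Tyrobp, Csf1r, Adgre1, Cd68, Gpnmb, Lgals3, Apoe, Lpl and Fabp5, followed across all groups of a study of rat tendon repair. They were taken by name from a list, and the rule uses no measured value. All 10 were among the 13124 genes counted, and all 10 were among the 12558 genes that reached a group mean of at least 3 CPM (counts of a gene scaled to a library of 1000000 counts) in at least 1 of the 7 groups. The study sequenced RNA from the right plantaris tendon of 3-month-old male Sprague Dawley rats to ask whether an inhibitor of hematopoietic prostaglandin D synthase (HPGDS), GSK2894631A, changed healing. Control tendons (n = 3) came from rats with no surgery and no compound. All other rats had both plantaris tendons cut through and sutured at once, were given GSK2894631A by gavage 2 times a day at 0 (vehicle alone), 2 or 6 mg/kg, and gave tendons at 7 days (7D, n = 5, 4 and 3) or 21 days (21D, n = 5 at each dose). Each tendon came from 1 rat, was cut off just below its junction with the muscle, and was ground whole. In such bulk RNA, more macrophages, more RNA of a gene per macrophage and RNA of the gene from other cells cannot be told apart.

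Macrophages that enter an injured tissue arise largely from blood monocytes, clear debris and dead cells, and take up large amounts of lipid from them. TREM2 is a surface receptor that binds lipids and lipoproteins and signals through the adaptor TYROBP (DAP12), which carries the activating motif that recruits SYK. CSF1R is the receptor for CSF1 and IL-34 that keeps macrophages alive, and ADGRE1 (F4/80) is a surface receptor used as a macrophage marker in rodents. CD68 is a glycoprotein of the lysosome membrane, GPNMB a glycoprotein of lysosomes and the cell surface that rises in lipid-loaded macrophages, and galectin-3 (Lgals3) a secreted sugar-binding protein. Apolipoprotein E (Apoe) carries lipid out of cells, lipoprotein lipase (Lpl) releases fatty acids from lipoproteins and is also made by fat and muscle, and FABP5 carries fatty acids inside cells. On the rn6 genome Apoe and Tyrobp are on chromosome 1, Fabp5 on chromosome 2, Gpnmb on chromosome 4, Adgre1 and Trem2 on chromosome 9, Cd68 on chromosome 10, Lgals3 on chromosome 15, Lpl on chromosome 16 and Csf1r on chromosome 18.

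Promoter sequence of 4 of the genes is shown because Gpnmb, Trem2 and Cd68 varied together from tendon to tendon and Adgre1 followed them less closely, as described further on. RefSeq promoters on the GRCr8 assembly were found for 6 of the 10 genes, in 8 windows since some genes had more than 1 start, and were read from 250 bases before to 20 bases after the start of transcription. Tyrobp, Lgals3, Fabp5 and Lpl had no entry. Capitals mark each match, on either strand, to TGANTCA, the sequence bound by AP-1 factors, or to GAGGAA, a core sequence of the macrophage ETS factor PU.1.
Gpnmb, chr4:79340878-79341147, plus strand: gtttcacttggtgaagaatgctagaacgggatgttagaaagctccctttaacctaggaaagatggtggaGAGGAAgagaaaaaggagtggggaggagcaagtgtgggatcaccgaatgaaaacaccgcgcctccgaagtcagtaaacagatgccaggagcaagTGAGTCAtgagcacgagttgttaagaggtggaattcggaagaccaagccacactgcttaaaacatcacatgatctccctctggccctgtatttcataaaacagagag
Trem2, chr9:20151760-20152029, minus strand: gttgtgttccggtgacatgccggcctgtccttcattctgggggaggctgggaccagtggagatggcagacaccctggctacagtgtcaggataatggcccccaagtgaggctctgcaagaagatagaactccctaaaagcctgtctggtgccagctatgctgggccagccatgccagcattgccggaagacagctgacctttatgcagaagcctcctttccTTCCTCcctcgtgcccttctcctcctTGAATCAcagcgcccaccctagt
Cd68, chr10:54882422-54882691, minus strand: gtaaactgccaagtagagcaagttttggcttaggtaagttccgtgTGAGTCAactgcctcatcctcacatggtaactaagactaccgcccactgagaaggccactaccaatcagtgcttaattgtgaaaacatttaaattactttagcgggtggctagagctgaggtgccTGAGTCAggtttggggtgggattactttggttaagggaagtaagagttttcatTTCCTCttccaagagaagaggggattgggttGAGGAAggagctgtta
Adgre1, chr9:2329190-2329459, plus strand: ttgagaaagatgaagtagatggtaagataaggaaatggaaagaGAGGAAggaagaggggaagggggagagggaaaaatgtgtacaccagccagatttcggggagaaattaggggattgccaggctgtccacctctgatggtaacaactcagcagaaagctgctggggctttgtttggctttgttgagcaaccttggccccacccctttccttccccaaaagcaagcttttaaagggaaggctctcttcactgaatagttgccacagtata
The letters TGANTCA began 87 bases before the start in Gpnmb, 3 bases before it in Trem2, and 205 and 80 bases before it in Cd68. They were absent from the windows of Adgre1, Apoe and Csf1r, and 6.81% of the 33469 rat promoters of this length held them. GAGGAA was in 6 of the 8 windows, 1 for each of the 6 genes, and in 25.0% of all promoters. CATGTG, a letter pattern bound by MITF-type factors, was in 3 of the 8 windows, of Gpnmb, Cd68 and Apoe (in Apoe not the window that held GAGGAA), and in 4341 of the 33469 promoters, and CACGTG was in none of the 8 windows and in 6.02% of all promoters. These matches describe the letters only, and a link to how the genes varied was not tested. Tyrobp, Lgals3 and Fabp5, which also varied with Gpnmb, had no window to read.

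Total counts were 12405741 to 49909374 per tendon, and 3 counts corresponded to 0.0601 to 0.242 CPM, a limit that covers counting error only. All values below are counts scaled by TMM and given as CPM. The 29 skeletal muscle genes of a fixed list made up between 19.6 and 28.2% of a control library. In 7D libraries they made up 0.175 to 1.31% without the compound and 0.0100 to 0.0128% with it, and in 21D libraries 0.0674 to 9.90%. Muscle RNA thus moved with injury and, at 7 days, with dose. Tendon genes of another list were present in every group, with Col1a1 at the highest level, and 3 of 9 were lower and 1 higher in 7D 0 mg/kg than in control tendons. Control replicate 4 stood apart with the highest muscle share and with the lowest level of Csf1r, Tyrobp, Cd68, Gpnmb, Lgals3, Adgre1 and Trem2. Calls of the 10 genes against control that were lost without it are therefore given with and without it, as are the numbers called from several lists. Hpgds, the target of the compound, was measured at 4.03 ± 3.22 CPM in control tendons and at 1.48 to 2.80 CPM as group means in repaired tendons. Control replicate 4 had 0.653 CPM of it, where control replicates 2 and 3 had 7.07 and 4.37 CPM.

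**Figure D1:**
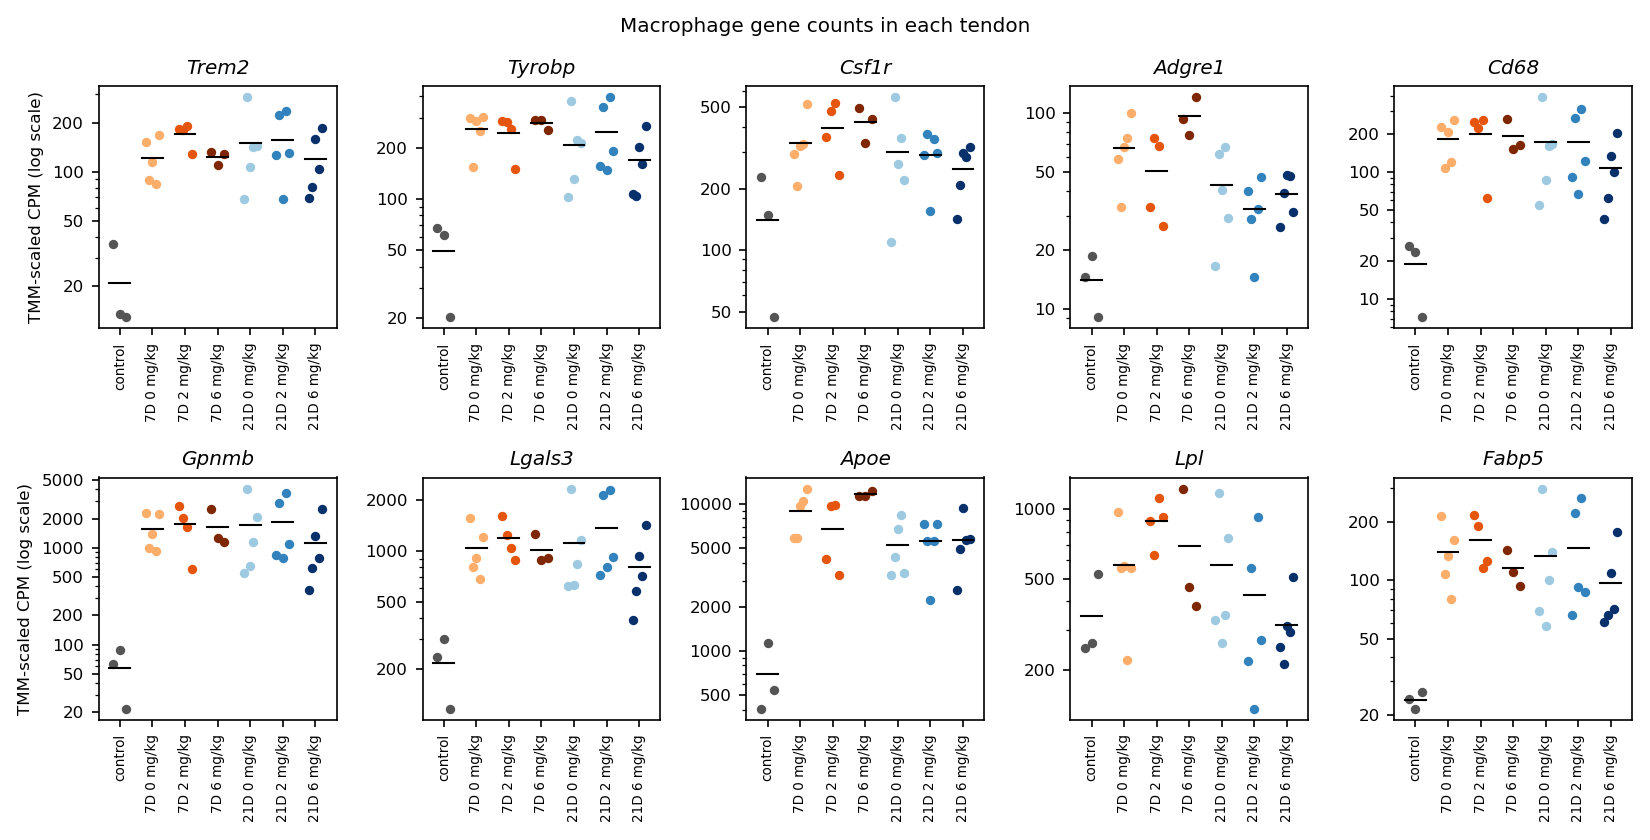
Level of each gene in each of the 30 tendons. The y axis is TMM-scaled CPM on a log scale, each point is 1 tendon, and lines mark group means of 3 to 5 tendons. Gpnmb lay between 21.9 and 88.4 CPM in control tendons and at 369.8 CPM or more in each repaired tendon, while the Lpl points of control and repaired tendons overlapped.

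The genes were far higher in repaired than in control tendons, at 7 days and still at 21 days. Each was compared between groups with edgeR's quasi-likelihood test in 1 fit over all 30 tendons, with Benjamini-Hochberg adjustment over 12558 genes, and counted as changed at an adjusted p under 0.05. In 7D 0 mg/kg tendons 9 of the 10 genes were higher than in control tendons, where 35.8% of all genes tested were higher. At 7 days with 2 and 6 mg/kg 10 and 9 genes were higher, beside 35.8% and 34.1% of all genes. In 21D 0, 2 and 6 mg/kg tendons 9, 9 and 8 genes were higher, beside 32.2%, 33.8% and 30.8% of all genes. None of the 10 was lower in any of these 6 comparisons, which share the 3 control tendons. Lpl missed the threshold everywhere but in 7D 2 mg/kg tendons, and Csf1r missed it in 21D 6 mg/kg tendons. The median log2 fold change of the 10 genes was 2.46, 2.60 and 2.52 at 7 days and 2.41, 2.63 and 1.95 at 21 days for 0, 2 and 6 mg/kg, while the median of all genes lay between 0.01 and 0.05.

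Trem2 measured 12.98, 13.6 and 36.5 CPM in control tendons. In 7D 0 mg/kg tendons it measured 84.4, 88.9, 115, 153 and 169 CPM, and in 21D 0 mg/kg tendons 67.9, 107, 143, 145 and 287 CPM. The lowest repaired tendon was above the highest control tendon. Relative to control tendons the log2 fold change of this lipid receptor was 2.53 ± 0.47 (SE) at 7 days (adjusted p = 3.91e-05) and 2.83 ± 0.48 at 21 days (adjusted p = 1.65e-05).

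Tyrobp, the signalling partner of TREM2, measured 20.2, 61.0 and 67.1 CPM in control tendons. It ranged from 153 to 304 CPM in 7D 0 mg/kg tendons and from 102 to 374 CPM in 21D 0 mg/kg tendons, so that neither group overlapped with the controls. Its log2 fold change was 2.38 ± 0.46 at 7 days (adjusted p = 5.95e-05) and 2.07 ± 0.45 at 21 days (adjusted p = 0.000308).

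Csf1r had the smallest difference among the receptors and the least certain one. Its levels were 47.0, 148 and 227 CPM in control tendons. Without the compound they were 206, 296, 323, 330.5 and 516 CPM at 7 days. At 21 days they were 109.7, 220.3, 265, 352 and 560.2 CPM. Both repaired groups overlapped with the controls. Against control tendons Csf1r differed by a log2 fold change of 1.25 ± 0.45 at 7 days (adjusted p = 0.0163) and 1.097 ± 0.45 at 21 days (adjusted p = 0.0341). Without control replicate 4 it was 0.78 (adjusted p = 0.130) and 0.63 (adjusted p = 0.226), and the 7D 2 mg/kg and 21D 2 mg/kg comparisons of Csf1r also lost the threshold without that tendon (adjusted p = 0.0561 and 0.262). Other tendons mattered as well, since the Csf1r call was lost in 4 of 8 fits that left out 1 tendon in 21D 0 mg/kg and in 6 of 8 in 21D 2 mg/kg tendons. When the fit held just the groups being compared, it was lost at 7 days with 0 mg/kg (adjusted p = 0.0518) and at 21 days with 0 and 2 mg/kg (adjusted p = 0.162 and 0.0797).

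Adgre1 measured 9.14, 14.7 and 18.7 CPM in control tendons and 33.2, 58.7, 67.5, 74.7 and 99.8 CPM in 7D 0 mg/kg tendons. In 7D 6 mg/kg tendons it measured 77.5, 92.9 and 121 CPM, all above the 7D 2 mg/kg tendons at 26.8, 33.5, 68.3 and 74.96 CPM. At 21 days it measured 16.7, 29.4, 40.6, 62.0 and 67.6 CPM without the compound, and 1 of these tendons fell within the control range. The log2 fold change from control tendons was 2.23 ± 0.46 in 7D 0 mg/kg tendons (adjusted p = 0.000126) and 1.60 ± 0.44 in 21D 0 mg/kg tendons (adjusted p = 0.00285). With 2 and 6 mg/kg at 21 days it was 1.20 ± 0.44 (adjusted p = 0.0178) and 1.44 ± 0.44 (adjusted p = 0.00641), and Adgre1 lost both calls without control replicate 4 (adjusted p = 0.114 and 0.0518). The 2 mg/kg call was also lost without control replicate 2 (adjusted p = 0.0557).

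**Figure D2:**
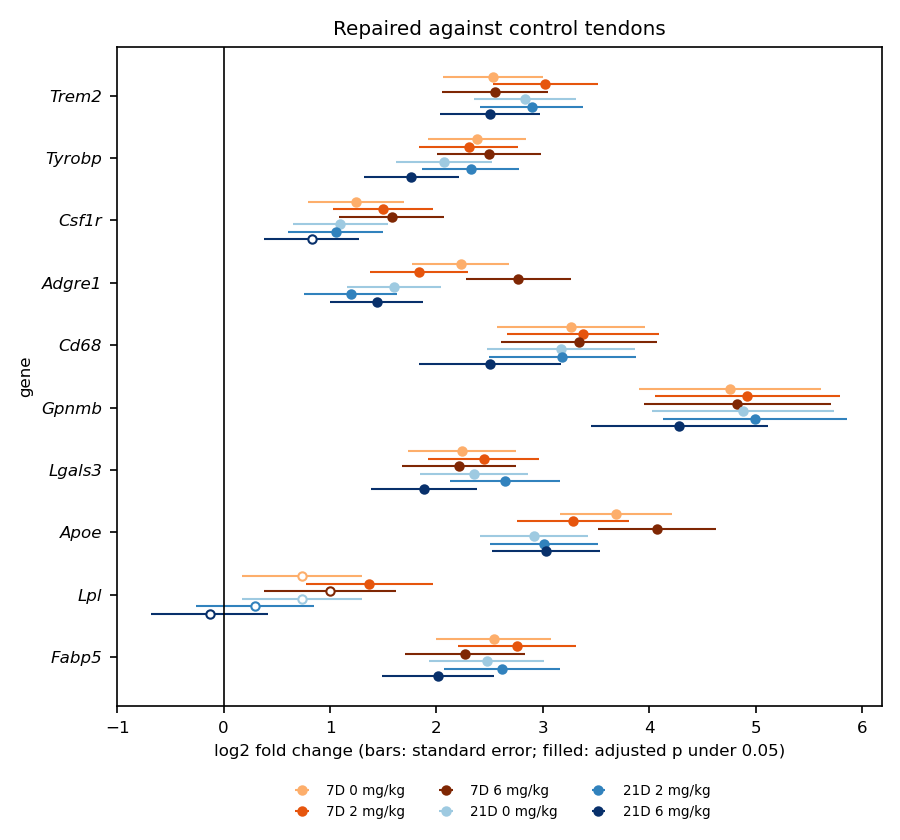
Log2 fold change of each gene in the 6 repaired groups relative to control tendons. Points are estimates of edgeR's model, bars are standard errors, and filled points have an adjusted p under 0.05. Gpnmb lies between 4.28 and 4.997 in all groups, and Lpl is filled in 7D 2 mg/kg tendons only.

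Gpnmb showed the widest difference between repaired and control tendons of the 10 genes in each of the 6 comparisons. It measured 21.9, 62.8 and 88.4 CPM in control tendons. In 7D 0 mg/kg tendons it measured 924, 992, 1373, 2222 and 2304 CPM, and in 21D 0 mg/kg tendons 547, 644, 1140.2, 2096 and 4079 CPM. Every repaired tendon was above every control tendon, and the repaired tendons of a group also differed widely among themselves. The mean rose from 57.7 ± 33.5 (SD, n = 3) to 1563 ± 662 CPM (n = 5) at 7 days, a 27.1-fold difference in the fit (95% interval 8.02 to 91.3, adjusted p = 2.45e-05). At 21 days the mean was 1701 ± 1464 CPM and the difference 29.5-fold (95% interval 8.66 to 100.2, adjusted p = 2.71e-05). With the compound the log2 fold change was 4.92 and 4.83 at 7 days and 4.997 and 4.28 at 21 days, for 2 and 6 mg/kg.

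Cd68, the other membrane glycoprotein of lysosomes, measured 7.18, 23.6 and 26.0 CPM in control tendons. Without the compound it measured 108, 119, 206, 226 and 255 CPM at 7 days, and 55.2, 85.9, 161, 166 and 389 CPM at 21 days. All of these were above the controls, and the log2 fold change was 3.27 ± 0.70 at 7 days (adjusted p = 0.000193) and 3.17 ± 0.69 at 21 days (adjusted p = 0.000319).

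Lgals3 measured 117, 236 and 302 CPM in control tendons, 685 to 1567 CPM in 7D 0 mg/kg tendons and 617 to 2330.1 CPM in 21D 0 mg/kg tendons. Its ranges did not overlap with the controls at either time. For this lectin the log2 fold change was 2.24 ± 0.50 at 7 days (adjusted p = 0.000347) and 2.35 ± 0.51 at 21 days (adjusted p = 0.000284).

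Among the genes of lipid transport, Apoe measured 406, 548 and 1135 CPM in control tendons. In 7D 0 mg/kg tendons it measured 5859, 5896, 9788, 10448 and 12798 CPM, and in 7D 6 mg/kg tendons 11332, 11466 and 12356 CPM. At 21 days the levels were lower and still far above the controls, with 3298, 3414, 4339, 6799 and 8405 CPM at 0 mg/kg. Relative to the controls, log2 Apoe was higher by 3.69 ± 0.53 at 7 days with 0 mg/kg (adjusted p = 1.15e-06) and by 4.07 ± 0.56 with 6 mg/kg (adjusted p = 8.36e-07). At 21 days with 0 mg/kg it was higher by 2.92 ± 0.51 (adjusted p = 2.26e-05). In 7D 2 mg/kg tendons Apoe measured 3309, 4207, 9712 and 9925 CPM, which splits into a lower and a higher pair, and log2 Apoe was higher than in the controls by 3.29 ± 0.52.

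Fabp5 was the most even gene in the controls, at 21.7, 24.3 and 26.4 CPM. It measured 80.0 to 216 CPM in 7D 0 mg/kg tendons and 58.2 to 299 CPM in 21D 0 mg/kg tendons. This fatty acid carrier differed by 2.54 ± 0.54 (log2) from the controls at 7 days (adjusted p = 0.000187) and 2.47 ± 0.54 at 21 days (adjusted p = 0.000309), and without control replicate 4 it was 2.55 and 2.49.

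Lpl differed less from control tendons than the other lipid genes. It measured 249, 262 and 522 CPM in control tendons and 220.5, 555, 556, 565 and 975 CPM in 7D 0 mg/kg tendons. In 7D 2 mg/kg tendons it measured 633, 889, 925 and 1115 CPM, which was the only group above all controls. The 21D 6 mg/kg tendons, at 212, 252, 294, 312 and 507 CPM, lay within or just below the control range. For Lpl the log2 fold change was 0.74 ± 0.56 in 7D 0 mg/kg tendons (adjusted p = 0.245), 1.37 ± 0.60 in 7D 2 mg/kg tendons (adjusted p = 0.0443) and -0.13 ± 0.55 in 21D 6 mg/kg tendons (adjusted p = 0.848). The 7D 2 mg/kg call was lost with RLE normalization (adjusted p = 0.0504), with a replicate block (adjusted p = 0.0591) and without 5 of the 7 tendons of the comparison, among them control replicates 2 and 3 (adjusted p = 0.151 and 0.122).

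Of the genes called, 8, 10 and 9 at 7 days and 7, 7 and 8 at 21 days had ranges above those of the controls with no overlap, for 0, 2 and 6 mg/kg. Among all genes tested this held for 31.2%, 30.1% and 34.6% at 7 days and 25%, 29.5% and 25.9% at 21 days. With the log2 share of muscle counts as a covariate 5 of the 10 genes were called in 7D 0 mg/kg tendons and 0 in 7D 2 mg/kg and 6 mg/kg tendons, but since that share did not overlap between control and 7D tendons, the covariate and the injury cannot be told apart there. With scaling by library size only, all genes shifted upward in repaired tendons by a median of 0.51 to 0.64 (log2), and the share of higher genes among those called in 7D 0 mg/kg tendons went from 50.1% to 75.6%.

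Other genes of the same pathways were counted from fixed lists. Of 18 genes of TREM2 and TYROBP signalling, 17 rose and 1 fell from control to 7D 0 mg/kg tendons, with a median log2 fold change of 1.98. The B cell and macrophage linker Blnk (3.34, adjusted p = 7.15e-08) and the inhibitory lectin Cd33 (2.76, adjusted p = 2.33e-06) had the largest values, Pik3cg was higher by 1.29 (adjusted p = 0.00338), and the adaptor Pik3ap1 was lower at -1.35 (adjusted p = 0.0105). In 21D 0 mg/kg tendons 15 of the 18 were higher and 0 lower, and without control replicate 4 the number called was 14 at 7 days and 10 at 21 days. Of 16 genes of the CSF1R axis and macrophage transcription factors, 10 were higher and 1 lower at 7 days, led by the transcription factor Irf8 (3.83, adjusted p = 2.45e-08) and the receptor chain Csf2rb (2.53, adjusted p = 1.07e-05). Leaving out control replicate 4 took the number called from 11 to 9. Il34, a ligand of CSF1R, differed by 0.17 (adjusted p = 0.296), and Tfeb, a regulator of lysosome genes, was lower by a log2 fold change of -1.34 (adjusted p = 3.99e-07).

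Of 25 genes of lipid uptake, storage and efflux, 12 rose and 2 fell from control to 7D 0 mg/kg tendons, with a median log2 fold change of 0.89. Olr1, a receptor for oxidized lipoproteins, was higher by 3.64 (adjusted p = 0.0141). Apoc4, which lies beside Apoe in mammalian genomes, had no count in the 3 control tendons and a mean of 2.32 CPM in repaired tendons. Vldlr, a lipoprotein receptor of muscle and fat, was lower at -1.62 (adjusted p = 5.40e-10), and Fabp3, the muscle fatty acid carrier, was lower at -4.87 (adjusted p = 9.37e-07). Of 22 further genes described for lipid-associated macrophages, 17 were higher and 0 lower. The secreted phosphoprotein Spp1 led them at 7.75 (adjusted p = 0.000188), and Atp6v0d2, a proton pump subunit, had a mean of 0.0943 CPM in control and 14.9 CPM in repaired tendons. Psap, which encodes the precursor of the lysosomal saposins, did not pass (0.17, adjusted p = 0.527).

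Markers of other blood cells moved with these genes too. Of 19 further macrophage and monocyte genes, 17 rose and 0 fell from control to 7D 0 mg/kg tendons, led by Lst1 (3.97) and Fcgr3a (3.82), while the complement genes C1qc (0.66, adjusted p = 0.174) and C1qb (0.63, adjusted p = 0.180) did not pass. Their summed level was 565 to 2067 CPM in control and 3141 to 6502 CPM in 7D 0 mg/kg tendons, with Lyz2 at the highest level. All 9 T cell markers were higher, from a sum of 16.0 to 93.1 CPM to 113 to 314 CPM. Cd4, which rat macrophages also express and which is named further on among the genes closest to Csf1r, had the highest level of them, at 11.5 to 83.96 CPM in control and 64.1 to 216 CPM in 7D 0 mg/kg tendons. All 4 B cell markers were higher, from 0.408 to 1.41 CPM to 3.47 to 19.3 CPM, and Ms4a1 had no count in control tendons. Of 5 neutrophil markers 4 were higher, from 4.57 to 15.7 CPM to 57.3 to 108 CPM. All 5 osteoclast markers were higher, from 68.3 to 148 CPM to 608 to 1219 CPM, with Ctsk at 60.5 to 133 and 509 to 871 CPM of it, and of 8 mast cell markers 1 was higher. With control replicate 4 left out, the number called in 7D 0 mg/kg tendons was 15 for macrophage and monocyte genes and 8 for T cell markers. It was 4 for B cell, 3 for neutrophil and 5 for osteoclast markers. The part of each cell type in the 10 genes was not tested.

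Outside the blood lineages, all 29 skeletal muscle genes were lower in 7D 0 mg/kg than in control tendons. Of 10 adipocyte markers 5 were higher and 2 lower, and their summed level was 4827 to 10827 CPM in control and 1001 to 2415 CPM in 7D 0 mg/kg tendons, with the gene Car3, which muscle also makes, at the highest level. Of 7 endothelial markers 3 were higher, and of 6 Schwann cell markers 0 were higher or lower. Without control replicate 4 the number called in 7D 0 mg/kg tendons was 3 for adipocyte, 5 for endothelial and 2 for mast cell markers.

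Most of the 10 genes did not pass the threshold between 21 and 7 days at a single dose. Adgre1 and Apoe passed it as lower at 21 days when the doses were averaged. In 21D compared to 7D tendons 0 of the 10 genes passed the threshold at 0 mg/kg and 0 at 2 mg/kg, where 5.35% and 13.1% of all genes passed. At an unadjusted p under 0.05 the counts were 0 and 1 in edgeR, and DESeq2 called 0 at both doses. At 6 mg/kg 1 gene, Adgre1, was lower, beside 4.55% of all genes. Adgre1 fell there from 77.5, 92.9 and 121 CPM at 7 days to 26.2, 31.4, 39.2, 47.9 and 48.3 CPM at 21 days with no overlap, a log2 fold change of -1.33 ± 0.40 (adjusted p = 0.0293). The call was lost without 5 of the 8 tendons, which were 7D replicates 1 and 5 and 21D replicates 1, 2 and 5 (adjusted p between 0.0518 and 0.132). Apoe and Csf1r also did not overlap between the times at 6 mg/kg, with log2 fold changes of -1.04 ± 0.43 (adjusted p = 0.114) and -0.75 ± 0.42 (adjusted p = 0.263), and 10.6% of all genes lay lower without overlap.

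A comparison chosen after seeing these values set the mean of the 3 doses at 21 days against the mean of the 3 doses at 7 days, 15 tendons against 12. Here 2 of the 10 genes were lower and 0 higher, beside 16.8% and 18.9% of all genes. The number lower was thus close to the share of all genes, and does not set the 10 genes apart. Adgre1 was lower at -0.87 (95% interval -1.32 to -0.41, adjusted p = 0.00326) and Apoe at -0.70 (-1.18 to -0.21, adjusted p = 0.0231), and both calls held in each of the 27 fits that left out 1 repaired tendon. With the log2 share of muscle counts as a covariate neither passed (adjusted p = 0.762 and 0.883), while Trem2 and Lgals3 were called higher at 21 days (both 1.27, adjusted p = 0.0238 and 0.0342). That share was 0.0100 to 0.0121% at 7 days and 1.27 to 3.31% at 21 days with 2 mg/kg. With 6 mg/kg it was 0.0104 to 0.0128% and 0.349 to 9.90%. At these doses the covariate and the time cannot be told apart. Without the covariate Trem2 differed by 0.04 (-0.42 to 0.50), Lgals3 by -0.01 (-0.51 to 0.50), Gpnmb by -0.12 (-0.86 to 0.62) and Fabp5 by -0.15 (-0.68 to 0.37), none past the threshold. Tyrobp, Csf1r and Cd68 were at -0.34, -0.45 and -0.37, with adjusted p-values of 0.242, 0.134 and 0.386.

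Lpl differed by dose in its values, at -0.00 ± 0.48 without the compound, -1.08 ± 0.50 with the lower dose (adjusted p = 0.161) and -1.13 ± 0.54 with the higher dose (adjusted p = 0.175). Over the mean of the doses Lpl was at -0.74 (95% interval -1.34 to -0.13, adjusted p = 0.0518), and 4 of 8 other ways of fitting brought it under the threshold. The difference between doses did not pass a test of its own (adjusted p = 0.854 for dose by time). Adipocyte markers moved beside Lpl, since 0, 8 and 7 of 10 were lower at 21 than at 7 days with 0, 2 and 6 mg/kg. Their summed level was 523 to 4616 CPM in 7D 2 mg/kg and 234 to 719 CPM in 21D 2 mg/kg tendons, and their part in the Lpl values was not tested.

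**Figure D3:**
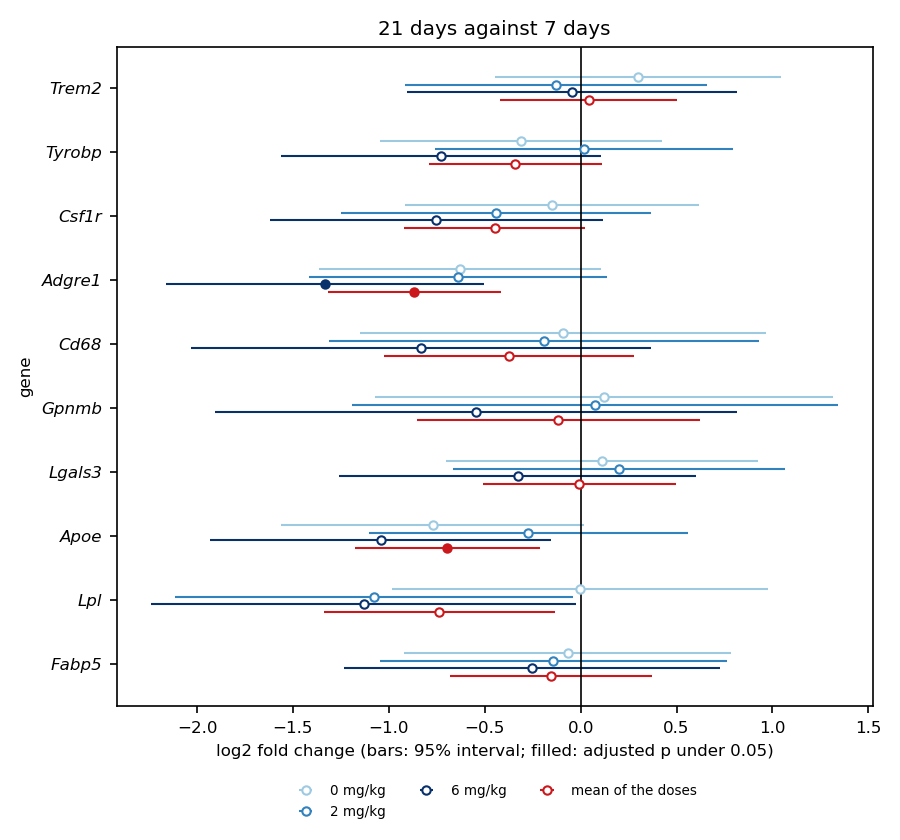
Log2 fold change between 21 and 7 days for each gene, at each dose (blue) and for the mean of the doses (red). Bars are 95% intervals, and filled points have an adjusted p under 0.05. Adgre1 is filled at 6 mg/kg and for the mean of the doses, Apoe for the mean of the doses, and the intervals of Trem2, Gpnmb, Lgals3 and Fabp5 all include 0.

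Some immune genes of the lists were lower at 21 days at every dose. They were Irf8, the macrophage gene Lst1, the neutrophil gene S100a8 and the T cell genes Cd3g and Cd8a, and Vldlr and the muscle genes Tnnc1 and Mb were higher at each dose. Over all genes, 100 were lower and 159 higher at each of the 3 doses. For the mean of the doses, 9 of 19 further macrophage and monocyte genes, 7 of 18 genes of TREM2 and TYROBP signalling, 8 of 9 T cell markers and all 5 neutrophil markers were lower, with none higher. Of 22 further genes of lipid-associated macrophages 5 were lower and 2 higher, and of 5 osteoclast markers 0 passed in either direction.

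No difference between doses of GSK2894631A passed the threshold for any of the 10 genes. In 7D 2 mg/kg compared to 7D 0 mg/kg tendons 0 of 10 passed, where 2.36% of all genes did, and at 6 mg/kg 0 of 10 passed beside 0.39% of all genes. The muscle share of vehicle tendons did not overlap with that of compound tendons at 7 days. Dose and muscle content therefore cannot be told apart at that time. Of the 29 skeletal muscle genes, 21 were lower with 2 mg/kg and 17 with 6 mg/kg. All 49 genes called with 6 mg/kg were lower. Leaving muscle genes out of the counts took the number called from 296 to 268 with 2 mg/kg and from 49 to 10 with 6 mg/kg. In 21D tendons 0 of 10 passed at either dose, as did 0 of all 12558 genes. Over the 3 doses together 0 of 10 passed at 7 days (2.05% of all genes) and at 21 days (0% of all genes), and 0 of 10 had a dose effect that differed between the times (0.39% of all genes). In each of these 7 tests edgeR gave 0 of the 10 genes an unadjusted p under 0.05, and DESeq2 called 0. The smallest adjusted p over the 3 doses was 0.542 at 7 days, for Adgre1, and 0.593 at 21 days, for Lgals3.

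The intervals of these differences were wide. Apoe measured 5859 to 12798 CPM at 7D 0 mg/kg, 3309 to 9925 CPM at 7D 2 mg/kg and 11332 to 12356 CPM at 7D 6 mg/kg, so the 3 highest-dose tendons lay within the range of the untreated ones. Its log2 fold change relative to 7D 0 mg/kg tendons was -0.40 (95% interval -1.24 to 0.44) at 2 mg/kg and 0.39 (-0.51 to 1.29) at 6 mg/kg. Adgre1 had the same order, at -0.39 (-1.17 to 0.39) and 0.54 (-0.29 to 1.38). For Trem2 the values were 0.49 (-0.29 to 1.28) and 0.02 (-0.84 to 0.88), and for Gpnmb 0.16 (-1.10 to 1.43) and 0.07 (-1.31 to 1.45).

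At 21 days the 6 mg/kg tendons had the lower mean for most of the genes, with a median log2 fold change of -0.39 relative to 0 mg/kg against 0.00 over all genes. Gpnmb was at -0.60 (-1.80 to 0.60), Cd68 at -0.67 (-1.73 to 0.40) and Lpl at -0.86 (-1.85 to 0.12), and Apoe at 0.12 (-0.67 to 0.90). The 21D 0 mg/kg group held replicate 2, which had the highest Gpnmb, Trem2, Cd68, Lgals3, Fabp5, Lpl, Csf1r and Tyrobp of its group. Replicate 2 also had the lowest muscle share of the group, 0.0674% where the others had 2.30 to 8.15%. Without that tendon the median was 0.02, with Gpnmb at 0.02, Trem2 at 0.05, Cd68 at -0.12 and Lpl at -0.42.

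**Figure D4:**
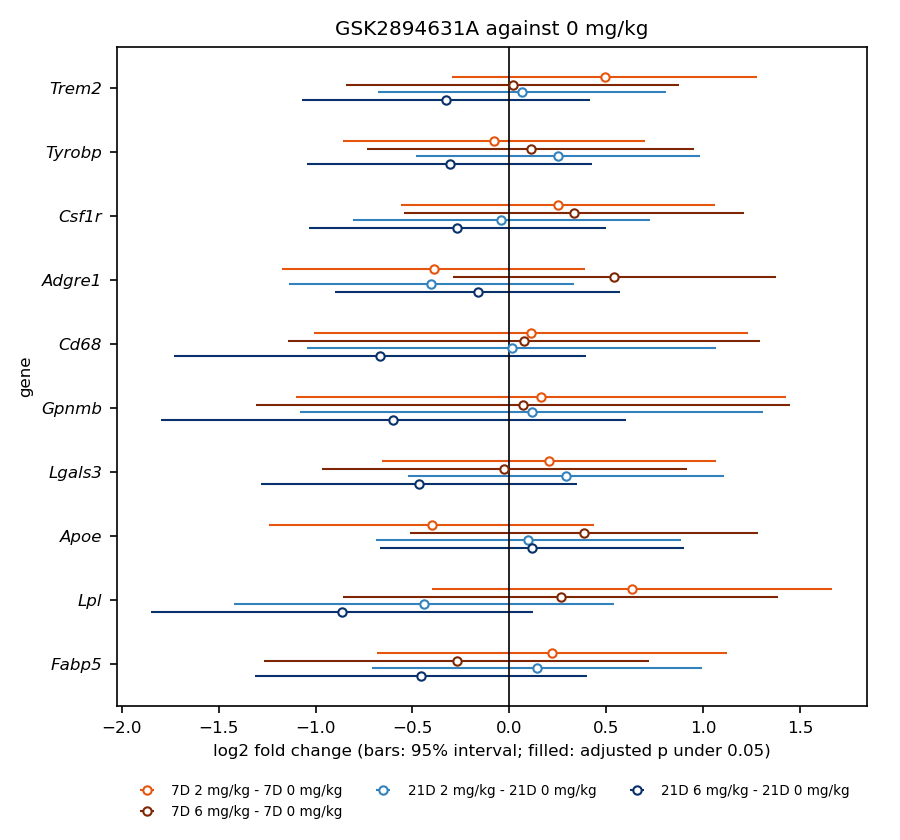
Log2 fold change of each gene with 2 or 6 mg/kg of GSK2894631A relative to 0 mg/kg at the same time. Bars are 95% intervals and open points have an adjusted p of at least 0.05. Every interval includes 0, and the widest belong to Gpnmb.

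Tendons of 1 group differed widely, and the 10 genes did so in an ordered way. The deviation of log2 CPM from the group mean was compared over the 27 repaired tendons, as a description without a test. These points share the scaling of each library and the removal of the group mean. The muscle share also varied within groups, from 0.0674 to 8.15% in 21D 0 mg/kg and 0.349 to 9.90% in 21D 6 mg/kg tendons. Its part in the correlations was not tested. Trem2, Tyrobp, Cd68, Gpnmb, Lgals3 and Fabp5 rose and fell together, with Pearson's r from 0.837 for Trem2 and Fabp5 to 0.969 for Lgals3 and Fabp5. Spearman's rho for these pairs was 0.851 and 0.954. Without the 2 tendons farthest from the median of the gene named first, Trem2 or Lgals3, r was 0.873 and 0.955. Within 7D (n = 12) and 21D tendons (n = 15) r was 0.723 and 0.861 for the first pair and 0.948 and 0.974 for the second. Within 7D tendons some other pairs of the set were looser. There r was 0.555 for Tyrobp and Fabp5, 0.604 for Cd68 and Fabp5 and 0.621 for Tyrobp and Lgals3. Tyrobp was closer at 7D to Adgre1 (0.689) and Csf1r (0.756) than to Fabp5 or Lgals3. At 21D its r was 0.940 with Fabp5 and 0.450 with Adgre1.

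Adgre1 and Apoe formed another pair, with r = 0.839 (rho 0.828, 0.814 without the 2 tendons farthest in Adgre1, 0.915 at 7D and 0.793 at 21D). Their correlation with the first set ran from moderate to near 0. The r of Adgre1 was 0.564 with Trem2, 0.545 with Cd68, 0.506 with Tyrobp and 0.356 with Gpnmb, and that of Apoe was 0.453 with Trem2 and 0.446 with Cd68. At the low end Apoe had an r of 0.002 with Fabp5, -0.024 with Lpl and 0.130 with Lgals3, and Adgre1 had 0.149 with Fabp5 and 0.245 with Lgals3. Csf1r stood between the sets, at 0.854 with Adgre1, 0.709 with Apoe, 0.851 with Trem2 and 0.543 with Fabp5. Lpl went with Lgals3 and Fabp5, at 0.824 and 0.823, and within 7D tendons alone r was 0.639 and 0.606.

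In single tendons Gpnmb and Apoe parted in some cases and moved together in others. In 21D 0 mg/kg tendons replicate 2 had 4079 CPM of Gpnmb, the highest of the group, and 4339 CPM of Apoe, the middle value. Replicate 4 had 1140.2 CPM of Gpnmb and 8405 CPM of Apoe, the highest of the group. In 7D 2 mg/kg tendons replicate 2 had the highest Gpnmb, at 2701 CPM, and the second lowest Apoe, at 4207 CPM. The tendon lowest in Gpnmb was also lowest in Apoe in 3 groups. These were replicate 5 of the 7D 2 mg/kg group (601 and 3309 CPM), replicate 3 of the 21D 2 mg/kg group (785 and 2245 CPM) and replicate 1 of the 21D 6 mg/kg group (369.8 and 2615 CPM).

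**Figure D5:**
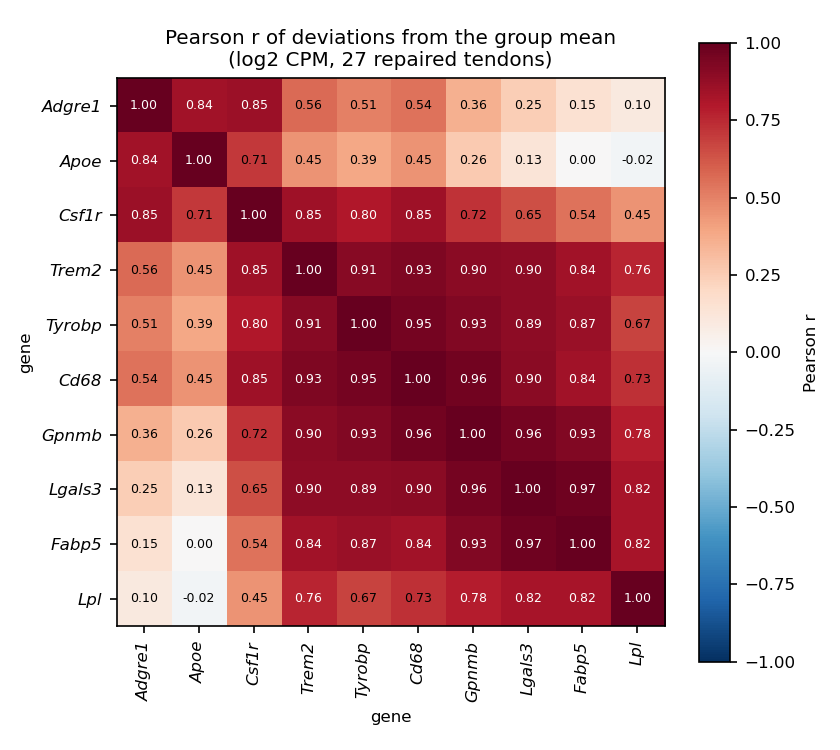
Pearson's r between the genes over the deviations of log2 CPM from the group mean in 27 repaired tendons. The color scale runs from -1 to 1 and each cell gives r. Adgre1 and Apoe share the upper left block with Csf1r, and the 6 genes from Trem2 to Fabp5 form the block at 0.84 to 0.97.

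The genes most like each member over these tendons also differed between the sets. Gpnmb was closest to the cation channel Trpv2 (r = 0.986), the kinase Matk (0.984) and the lysosomal protease Ctsd (0.981). Cd68 was closest to the lysosomal genes Ctsz (0.977) and Pld3 (0.976) and the kinase Rps6ka1 (0.976). Trem2 was closest to the cytokine gene Tnfsf13 (0.973), Laptm5 (0.960) and Sirpa (0.958), and Tyrobp to Cd53 (0.959) and Ctsz (0.958). Lgals3 was closest to Il18bp, Slc6a12 and Lilrb4 (each 0.97), and Fabp5 to Layn, Lilrb4 and Lgals3 (each 0.97).

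Apoe, by contrast, was closest to the proteases Ctsc and Ctse and the mannose receptor Mrc1 (each 0.910). Adgre1 was closest to Fgd2 (0.942), Naaa (0.942) and Osbpl11 (0.931), and Csf1r to Unc93b1, Ptpn6 and Cd4 (0.965, 0.965 and 0.964). Lpl was closest to RGD1565355 (0.928), Nabp1 (0.883) and the receptor kinase Met (0.881). The number of genes at r of at least 0.9 was 260 for Gpnmb (2.07% of those tested), 215 for Cd68, 177 for Lgals3, 141 for Tyrobp, 125 for Trem2, 121 for Fabp5, 66 for Csf1r, 12 for Adgre1, 4 for Apoe and 1 for Lpl.

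Relative to Csf1r in the same tendon, the counts of Gpnmb, Apoe, Cd68 and Tyrobp did not overlap between control and 7D 0 mg/kg tendons. The share of all genes for which this holds was not computed, so the ratios describe the named genes only. Of the genes called in 7D 0 mg/kg tendons Csf1r had the smallest log2 fold change. Dividing by it therefore gives higher ratios there for genes that differed more from control. Gpnmb counts were 0.277 to 0.596 times those of Csf1r in control tendons and 2.79 to 7.79 times in 7D 0 mg/kg tendons. At 21 days without the compound they were 2.43 to 9.52 times. Apoe counts were 1.79 to 11.6 times those of Csf1r in control tendons and 19.8 to 31.6 times in 7D 0 mg/kg tendons, and at 21 days, at 7.75 to 30.1 times, they overlapped with the controls. Cd68 counts were 0.114 to 0.159 and 0.360 to 0.764 times those of Csf1r in the same groups. The ratios of Trem2, Adgre1, Lgals3, Fabp5 and Lpl overlapped between control and 7D 0 mg/kg tendons. Trem2 was at 0.0916 to 0.276 and 0.256 to 0.516 times and Lpl at 1.098 to 11.1 and 0.667 to 3.29 times. In 21D 0 mg/kg tendons Trem2 counts were 0.404 to 0.657 times those of Csf1r, above the controls with no overlap. The ratios of Adgre1, Lgals3, Fabp5 and Lpl overlapped with the controls there too. The ratio compares groups within 1 gene and does not compare levels between genes, whose lengths differ.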

How the data were processed

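RNA sequencing counts were used for 30 rat plantaris tendons, grouped by the repair time and dose in their labels into 3 control tendons, 5, 4 and 3 tendons at 7 days and 5 per dose at 21 days. By the paper's exclusions 4 tendons would remain at 7 days with 6 mg/kg, but 3 are labelled so, and groups follow the labels. The authors trimmed 50 base single-end reads with fastp, removed 4 samples on read quality, mapped reads with STAR to rn6 and counted them in Ensembl exons. FastQC, STAR and edgeR are named in the submitters' processing notes without versions, and strand is not given in the sources used here. The deposited values are raw counts for each gene, not normalized. The authors also deposited a table of their own edgeR comparisons (fold changes, p-values and FDR), which was not used except for gene identifiers, chromosomes and the width of each gene, deposited as other values in bases. Labels and methods give 1 tendon per rat, so the spread is between animals.

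Tests used edgeR 4.0.16 in R 4.3.3. A gene was kept when its mean in any of the 7 groups reached 3 CPM, which removed 566 of 13124 genes. One quasi-likelihood model (TMM, a mean per group, without covariates) covered all 30 tendons, and adjusted p-values are Benjamini-Hochberg values over 12558 genes. The SE is the log2 fold change divided by the square root of F. A prior count of 2 was used for log2 CPM. Total counts per tendon were 12405741 to 49909374, and since PCR copies were not marked by molecular identifiers, depth limits cover counting error only. The most similar pair of replicates had a chi-square per gene of 30.7, so no library was a duplicate. The steps were tested on simulated data.

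The 10 genes, the other gene lists and the tests were chosen with earlier results of these data known. All 10 are named in each comparison. From each other list the 2 highest and 2 lowest genes in 7D 0 mg/kg against control were named, for other cell types counts and summed levels, for likeness the 3 genes of highest r, and for time the list genes called at all 3 doses. Some genes that this rule names are not reported here. Alternatives were RLE normalization, library size only, muscle genes left out of the counts, no filter, only the groups compared, DESeq2 1.42.0, a replicate block, the log2 share of muscle counts as a covariate, and leaving out each tendon.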

Additional observations from a re-analysis of the deposited data

Results flagged for a closer look

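In each group of 4 or 5 tendons the highest and the lowest log2 CPM of each gene were compared with the rest of the group by Dixon's criterion, which chance meets in about 1 in 20 groups. The criterion was applied on the log2 scale only, where low values stand out more, and the levels below are given as CPM. Of 50 groups of values, 6 had a tendon that stood apart, each time at the low end.

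Replicate 5 of the 7D 2 mg/kg group stood apart for 3 genes. It had 129.6 CPM of Trem2, where the other tendons had 181 to 190.5 CPM, 149.99 CPM of Tyrobp, where the others had 258 to 286 CPM, and 61.8 CPM of Cd68, where the others had 221 to 259 CPM. Replicate 3 of the 21D 2 mg/kg group stood apart for Csf1r, at 156 CPM against 290.3 to 371 CPM, and for Apoe, at 2245 CPM against 5583 to 7345 CPM. Replicate 2 of the 7D 0 mg/kg group had 153 CPM of Tyrobp, where the others had 249.6 to 304 CPM. Each of these values was still above all 3 control tendons, except that Csf1r in replicate 3 of the 21D 2 mg/kg group lay within the control range of 47.0 to 227 CPM.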

How the results depend on the processing

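Of 170 values (10 genes in 17 comparisons), 128 kept their side of the threshold under each of the 8 other ways of fitting and 157 in every fit that left out 1 tendon. Of the 140 values from a single contrast, 64 changed sign under at least 1 other way of fitting and 41 in at least 1 fit without a tendon, and among the 57 past the threshold these numbers were 10 and 0. Leaving out the filter on low counts changed 0 calls, RLE normalization, DESeq2, the replicate block and leaving out muscle genes 1 each, fitting only the groups compared 4, library size only 5, and the log2 share of muscle counts as a covariate 37. With that covariate the number of the 10 genes called against control tendons at 7 days was 5 without the compound and 0 with either dose, and between 21 and 7 days it was 4 at 2 mg/kg and 0 at 6 mg/kg. The 10 called values that changed sign did so with this covariate, namely Tyrobp (-0.0554), Csf1r (-0.69), Cd68 (-0.0153), Lgals3 (-0.18), Lpl (-0.58) and Fabp5 (-0.0490) at 7 days with 2 mg/kg, and Csf1r (-0.59), Cd68 (-0.00695), Lgals3 (-0.38) and Fabp5 (-0.50) at 7 days with 6 mg/kg. Trem2 (1.57) and Fabp5 (1.73) between the times at 2 mg/kg and Lgals3 (1.27) over the mean of the doses changed sign and passed the threshold with it, and Trem2 (1.27) passed over the mean of the doses. The cause was not tested. With 2 and 6 mg/kg the muscle share did not overlap between the times, so the covariate and the time cannot be told apart there. Taking the mean of the 3 doses in place of each dose gave 2 genes called between the times.

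Leaving out 1 tendon gave 8 to 9, 9 to 10 and 9 genes against control at 7 days and 8 to 9, 7 to 9 and 7 to 9 at 21 days, for 0, 2 and 6 mg/kg. Between the times it gave 0 to 1 at 2 mg/kg, with 1 (Lpl) without 21D 2 mg/kg replicate 4, 0 to 2 at 6 mg/kg, with 2 without 21D 6 mg/kg replicate 3, and 2 to 4 over the mean of the doses, with 4 without 21D 0 mg/kg replicate 2. Tendons with the same replicate number did not deviate together (median r of 0.007, over 0.1 in 29 of 76 pairs, 6 tendons closest to their own number), so the numbers do not pair tendons. The replicate block gave 9 genes called in 7D 2 mg/kg tendons, where Lpl lost its call (adjusted p = 0.0591), and changed no other call. With 3 control tendons, intervals against control are wide.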
